A study of Homo sapiens with 24 samples.

Results

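SK-MES-1 cells, an established line of squamous cell lung carcinoma, were compared after 48 h with transforming growth factor β (TGFβ) and after 48 h without it. The 6 libraries described here were chosen by their labels for treatment and time out of 24, which hold 8 groups of 3: an untreated and a TGFβ arm, each at 0, 8, 24 and 48 h. In all groups, dishes of cells were kept in serum-free medium for 3 h first, and the treated dishes then received TGFβ1 at 2 ng/ml. The study's methods name growth factor-depleted medium, without serum, for the stimulation itself as well. The 3 libraries of a group were described as biological triplicates of this 1 line, so the p-values measure the spread between its cultures and not between tumours. At 48 h the arms also differ in a code in the names of the deposited tables whose meaning is not given in the sources used here, so treatment and that code cannot be told apart. Within each arm the code also changes between 8 and 24 h, so any comparison of 48 h with 0 h crosses that change.

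TGFβ binds a pair of receptor kinases, which phosphorylate SMAD2 and SMAD3, and these move to the nucleus with SMAD4 to switch target genes on or off. In epithelial cells the pathway is known for arresting the cell cycle and for epithelial-mesenchymal transition, in which cells loosen their junctions, build matrix and become motile. It also feeds back on itself through induced inhibitors, and it is known to damp inflammatory genes. The late time point was thus described gene group by gene group, with the levels at 8 and 24 h and in untreated cells beside it.

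The 48 h libraries held between 46613589 and 63192651 estimated reads, of which 94.8% to 95.1% fell in genes matched to the annotation. Replicates correlated at 0.995 to 0.997 across genes and the arms at 0.956 to 0.958, as a description over 6 libraries. The first principal component of the 6 libraries (69.7% of the variance) separated the arms. On the second (9.02%), treated replicate 3 was at -30.2 against 21.0 and 9.21 for its group, and untreated replicate 3 at -12.0 against 4.93 and 7.09. At 0 h none of 17413 genes differed between the arms by limma voom at an adjusted p below 0.01, with 800 at an unadjusted p below 0.05, 0 by edgeR and 8 by DESeq2. The defining basal keratins KRT5, KRT6A and KRT14 and the desmosomal cadherin DSG3 were at or near 0 TPM (the deposited transcript level per length) in both 48 h arms, so the squamous label does not rest on them. The lineage factor TP63 stood at 36.8 and 26.8 TPM in untreated and treated cells, and the simple-epithelial keratin KRT18 at 975 and 849 TPM. Of the leukocyte markers, CD3E and MS4A1 were at 0, CD68 at 9.23 and 7.89 TPM, PTPRC at 2.01 and 1.64 TPM and LYZ at 0.222 and 0.0781 TPM, and the summed fibroblast markers were 66.2 and 54.6 TPM.

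At 48 h, 5688 of 17413 genes tested (32.7%) differed between the arms, 2820 of them higher with TGFβ (16.2%) and 2868 lower (16.5%). Differences are log2 values of TGFβ minus untreated, fitted to estimated counts by limma voom, with calls at an adjusted p below 0.01. Unless a time is given, rises, falls and levels that went from 1 value to another compare untreated with treated cells at 48 h. They do not compare with 0 h. Without treated replicate 3, 4944 genes were called, and without untreated replicate 3, 4988, against 4840 to 4973 without each of the other 4 libraries. The median over all genes tested was -0.01. Among the calls, 3043 (53.5%) were under 1.5-fold, and 1461 genes (8.39%) differed at least 2-fold, 715 of them higher (4.11%) and 746 lower (4.28%). At least 8-fold differences were found for 106 higher and 77 lower genes. The split depended on scaling: 49.6% of calls were higher with the scaling used, 35.6% with library totals and 88.6% with libraries scaled to the 4 reference genes of the study's PCR. GAPDH, a glycolytic enzyme and a member of these 4, was itself lower with TGFβ at 3324 against 4455 TPM, with a log2 difference of -0.40 ± 0.067 (SE), and the last scaling raised the median of all genes to 0.34. Smaller differences below are therefore relative to the scaling used. In bulk libraries, fewer cells making an RNA and less of it per cell cannot be told apart.

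The 15 largest rises among protein-coding genes of at least 10 TPM were led by secreted proteins. LEFTY1, a secreted antagonist of the Nodal branch of the TGFβ family, was at 0.104, 0.122 and 0.107 TPM in the untreated libraries and at 49.9, 51.4 and 49.9 TPM in the treated ones. Its log2 difference was 8.70 ± 0.43 (SE) with an adjusted p of 5.36e-13, and its near-identical neighbour LEFTY2 makes the assignment of its reads uncertain. AMTN, the enamel matrix protein amelotin, was at 0.490, 0.442 and 0.562 TPM without TGFβ and at 198, 190 and 191 TPM with it, a log2 difference of 8.51 ± 0.23. BGN, the small matrix proteoglycan biglycan, was at 1.12, 1.05 and 0.918 TPM against 113, 113 and 94.3 TPM, a log2 difference of 6.67 ± 0.18. The groups did not overlap for these genes, nor for any other gene given library by library below, as was so for 24.5% of all genes tested with higher values and 30.7% with lower values under TGFβ.

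PMEPA1, a membrane protein that holds back SMAD signalling, had the lowest adjusted p of all named genes. It lies at chr20:57648392-57711536 on the minus strand (GRCh38) and was at 27.2, 25.2 and 27.2 TPM in untreated libraries and 490, 502 and 466 TPM in treated ones. The log2 difference was 4.53 ± 0.041 (adjusted p = 4.47e-25), and it had already been 4.49 at 24 h. COL1A1, the main chain of type I collagen at chr17:50184101-50201632 on the minus strand, went from 166, 152 and 156 TPM to 2359, 2347 and 2059 TPM. That is a log2 difference of 3.89 ± 0.13, against 2.62 at 24 h. PRSS2, a trypsinogen with the close relative PRSS3, stood at 48.5 ± 2.87 TPM (SD, n = 3) without and 1050 ± 5.97 TPM with TGFβ.

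Other secreted proteins among these rises were PTHLH, the parathyroid hormone-related protein (5.66 to 148 TPM), PROC, the anticoagulant protein C (1.81 to 60.4 TPM), the guidance molecules SEMA7A (16.4 to 261 TPM) and DRAXIN (0.583 to 12.6 TPM), and CST4, a salivary cystatin (3.63 to 53.4 TPM). FOXS1, a forkhead transcription factor, went from 0.526 to 34.3 TPM, and the membrane protein NKAIN4 from 0.225 to 10.95 TPM. CGB5 and CGB8, near-identical genes for the β subunit of chorionic gonadotropin, differed by 6.87 ± 0.66 and 6.47 ± 0.22 on the log2 scale. Their course was of another shape. At 0 h CGB5 stood at 55.2 and 68.7 TPM in the arms, and by 48 h it was at 1.27 TPM in untreated cells. In treated cells it stood at 403 TPM at 8 h and 393.5 TPM at 24 h, and had come down to 147 TPM by 48 h. Treated CGB8 likewise went from 654 TPM at 8 h and 749 TPM at 24 h to 288 TPM at 48 h. Of the 15 genes, all 15 were at least 2-fold above their own 0 h level in the treated arm.

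**Figure D1:**
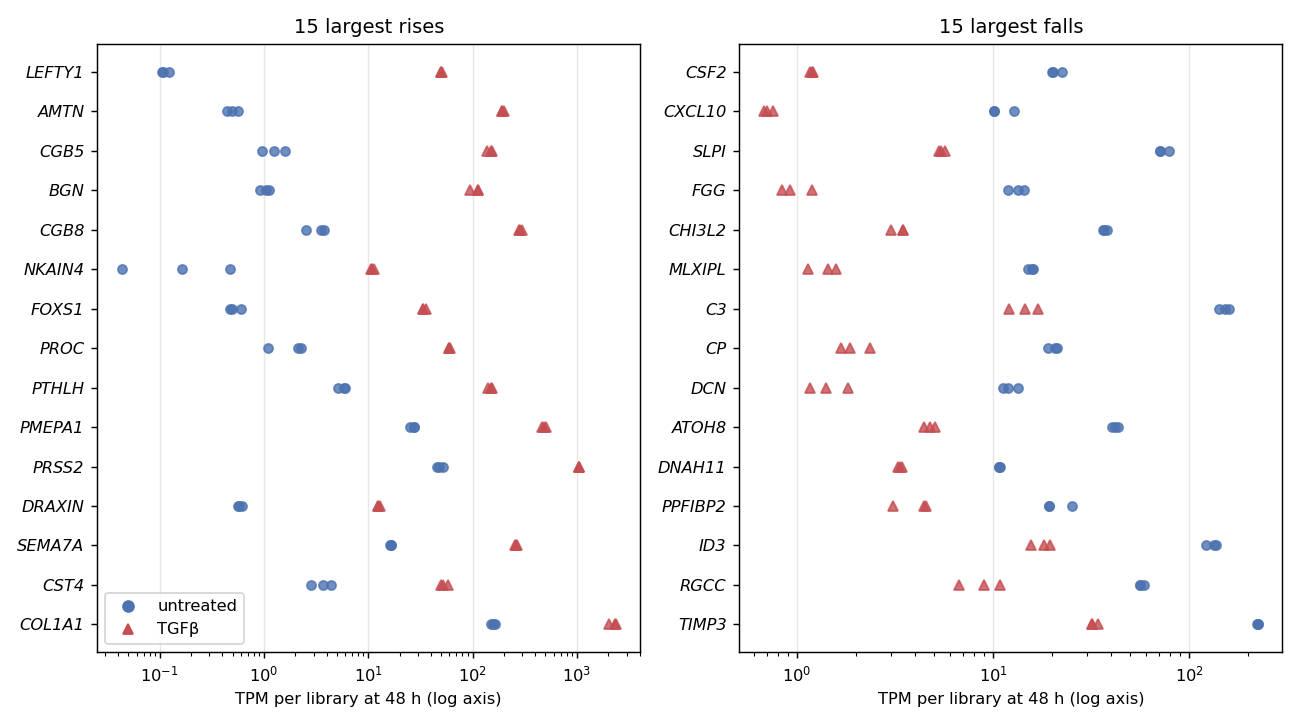
Levels of the 15 largest rises and 15 largest falls at 48 h, one point per library (3 untreated, 3 TGFβ) in TPM on a log axis, in order of the log2 difference. No gene's groups overlap, which the choice of genes required. The rises include levels from 0.0433 TPM for NKAIN4 in 1 untreated library to 2359 TPM for COL1A1 with TGFβ.

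Of the 15 largest falls, 7 were secreted defence or acute-phase proteins. CSF2, the growth factor GM-CSF, was at 19.98, 22.4 and 20.2 TPM in untreated libraries and 1.21, 1.17 and 1.19 TPM in treated ones, with a log2 difference of -4.07 ± 0.16 (adjusted p = 9.33e-15). C3, the central complement component at chr19:6677704-6730562 on the minus strand, was at 152, 160 and 142 TPM against 16.9, 14.5 and 12.1 TPM, a log2 difference of -3.33 ± 0.069. SLPI, a protease inhibitor of mucosal fluids, was at 71.0, 78.9 and 71.4 TPM against 5.29, 5.41 and 5.70 TPM. The chemokine CXCL10 (11.01 to 0.713 TPM), the fibrinogen chain FGG (13.2 to 0.983 TPM), the copper carrier ceruloplasmin CP (20.3 to 1.96 TPM) and the chitinase-like protein CHI3L2 (37.0 to 3.31 TPM) were lower too.

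The other falls were of matrix proteins, regulators and a few further genes. TIMP3, an inhibitor of metalloproteinases bound to the matrix, was at 222, 224 and 224 TPM without TGFβ and 34.1, 31.8 and 32.0 TPM with it. DCN, the proteoglycan decorin that binds TGFβ, went from 12.2 to 1.47 TPM. ID3, an inhibitor of helix-loop-helix factors and a target of BMP signalling, went from 131 to 17.8 TPM, and ATOH8, a helix-loop-helix factor, from 42.0 to 4.75 TPM. RGCC, a regulator of the cell cycle, went from 57.1 to 8.83 TPM, the carbohydrate-response factor MLXIPL from 15.6 to 1.39 TPM and the scaffold protein PPFIBP2 from 21.2 to 4.02 TPM. The axonemal dynein DNAH11 differed by -2.96 by counts and by -1.65 once counts were scaled for transcript length.

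For 14 of the 15 falls the untreated level at 48 h was at least 2-fold its own 0 h level. The treated level had fallen at least 2-fold from its own for 5 and risen at least 2-fold for 3. C3, for example, stood at 4.77 TPM at 0 h, 16.5 TPM at 24 h and 151 TPM at 48 h in untreated cells, and at 5.06, 4.17 and 14.5 TPM in the treated arm. Among all 746 genes at least 2-fold lower, 426 (57.1%) had risen at least 2-fold in untreated cells since 0 h, against 12.8% of all genes. In the treated arm, 220 (29.5%) had fallen at least 2-fold, against 8.09% of all, and 101 (13.5%) had risen at least 2-fold, against 14.2% of all. Among the 715 at least 2-fold higher, 492 (68.8%) had risen at least 2-fold in the treated arm, against 14.2% of all, and 168 (23.5%) had fallen in untreated cells, against 7.12%. These shares describe the same libraries that made the calls and carry no test. The code in the table names changed between 0 and 48 h within each arm, so time and code cannot be told apart in them.

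The counts of each gene list below stand beside shares of 16.2% higher and 16.5% lower over all genes tested. Genes of the TGFβ pathway itself moved in both directions. Of 22 ligands, latent binding proteins and receptors, 8 were higher and 8 lower, with a median of -0.03 that turned positive with the reference-gene scaling and with the 0 h difference subtracted. TGFB1, the ligand of the same kind as the one added, went from 64.1 to 174 TPM (log2 difference 1.46 ± 0.14), and TGFB2 from 45.2 to 20.7 TPM (-1.05 ± 0.078). LTBP1, LTBP2 and LTBP3, which tether the latent ligand to the matrix, were at 41.1, 20.2 and 176 TPM without and 100, 76.3 and 392 TPM with TGFβ. The signalling receptor TGFBR1 was higher, at 41.4 against 26.4 TPM, while TGFBR2 was lower, at 46.2 against 60.3 TPM. The co-receptor TGFBR3 went from 8.55 to 3.21 TPM, and GDF15, a distant stress-induced member of the family, from 564 to 89.3 TPM.

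Of 22 SMADs and feedback genes, 12 were higher and 6 lower, with a median of 0.30. The inhibitory SMAD7 was at 8.30, 8.24 and 7.67 TPM in untreated and 43.9, 47.4 and 45.4 TPM in treated libraries, a log2 difference of 2.47 ± 0.054. The SMAD corepressor SKIL went from 10.8 to 81.5 TPM and its relative SKI from 23.4 to 45.0 TPM. The ubiquitin ligases SMURF1 and SMURF2, which mark receptors for breakdown, were 35.7 and 55.2 TPM with TGFβ against 16.5 and 31.6 TPM. NOG, the BMP antagonist noggin, rose from 4.26 to 29.4 TPM. SMAD3 itself was lower, at 82.3 against 120 TPM, and the BMP targets ID2 and ID4 fell with ID3.

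Matrix genes were higher more often than lower. Of 23 collagen chains tested, 13 were higher and 4 lower (median 0.48), and of 19 genes for collagen modification and crosslinking 12 were higher and 0 lower (median 0.35). Beside COL1A1, COL4A1 of basement membranes went from 24.97, 24.6 and 24.1 TPM to 89.2, 89.2 and 87.2 TPM, COL7A1 of anchoring fibrils from 42.9 to 208 TPM and COL5A1 from 71.3 to 214 TPM. COL1A2, the partner chain of COL1A1 in type I collagen, was at only 0.0444 TPM without and 0.146 TPM with TGFβ. The crosslinking oxidases LOX, LOXL2 and LOXL4 were at 12.2, 55.0 and 18.8 TPM without and 35.4, 102 and 48.3 TPM with TGFβ. P4HA3, a prolyl hydroxylase subunit, differed by 2.54 ± 0.10, and COL8A2, a short-chain collagen, by 2.03 ± 0.088 at levels of 0.653 and 2.65 TPM. The collagen chains COL4A5, COL4A6, COL5A2 and COL6A1 were lower, by 0.55 or less on the log2 scale.

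Of 29 matrix glycoproteins and laminins, 18 were higher and 6 lower (median 0.43). TGFBI, an adhesion protein named for its induction, was at 211, 212 and 211 TPM in untreated and 1254, 1287 and 1298 TPM in treated libraries, a log2 difference of 2.61 ± 0.033. Thrombospondin 1 (THBS1), which activates latent TGFβ, went from 365 to 1106 TPM, and CCN2, connective tissue growth factor, from 25.6 to 99.9 TPM. Fibronectin (FN1) went from 397 to 724 TPM and tenascin C (TNC) from 22.7 to 54.2 TPM. LAMA1, LAMB2 and the perlecan gene HSPG2 of basement membranes were lower, by 0.97, 0.61 and 0.66 on the log2 scale.

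Integrins are the receptors for this matrix. Of 14 tested, 10 were higher and 3 lower (median 0.88). ITGB6, the partner of αv that releases latent TGFβ, was at 1.02, 1.08 and 1.15 TPM without and 9.64, 10.01 and 10.8 TPM with TGFβ, a log2 difference of 3.18 ± 0.12. ITGA11, a collagen receptor subunit, was at 62.2, 62.1 and 56.3 TPM against 347, 362 and 335 TPM. ITGB3 differed by 3.27 ± 0.056 and ITGA5, of the fibronectin receptor, by 1.07 ± 0.054. ITGA10, ITGB8 and ITGA3 were lower, by 0.84, 0.49 and 0.30.

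Among 24 extracellular proteases and their inhibitors, 16 were higher and 4 lower, and their median of 1.15 was the highest of the 28 lists. The lists were chosen with earlier results of these data known, so this rank is only a description. HTRA1, a secreted serine protease, was at 90.3, 88.9 and 89.6 TPM without and 497, 497 and 493 TPM with TGFβ, a log2 difference of 2.47 ± 0.042 against 1.00 at 24 h. MMP2, a gelatinase, went from 814 to 2287 TPM and its membrane-bound activator MMP14 from 136 to 294 TPM. PLAU, the urokinase that activates plasminogen, was higher, at 488 against 93.5 TPM. TIMP2 rose from 324 to 724 TPM while TIMP3 fell. The collagenase MMP1 had the lowest value of the list, at 8.97 TPM without and 0.351 TPM with TGFβ, a log2 difference of -4.66 ± 0.25.

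**Figure D2:**
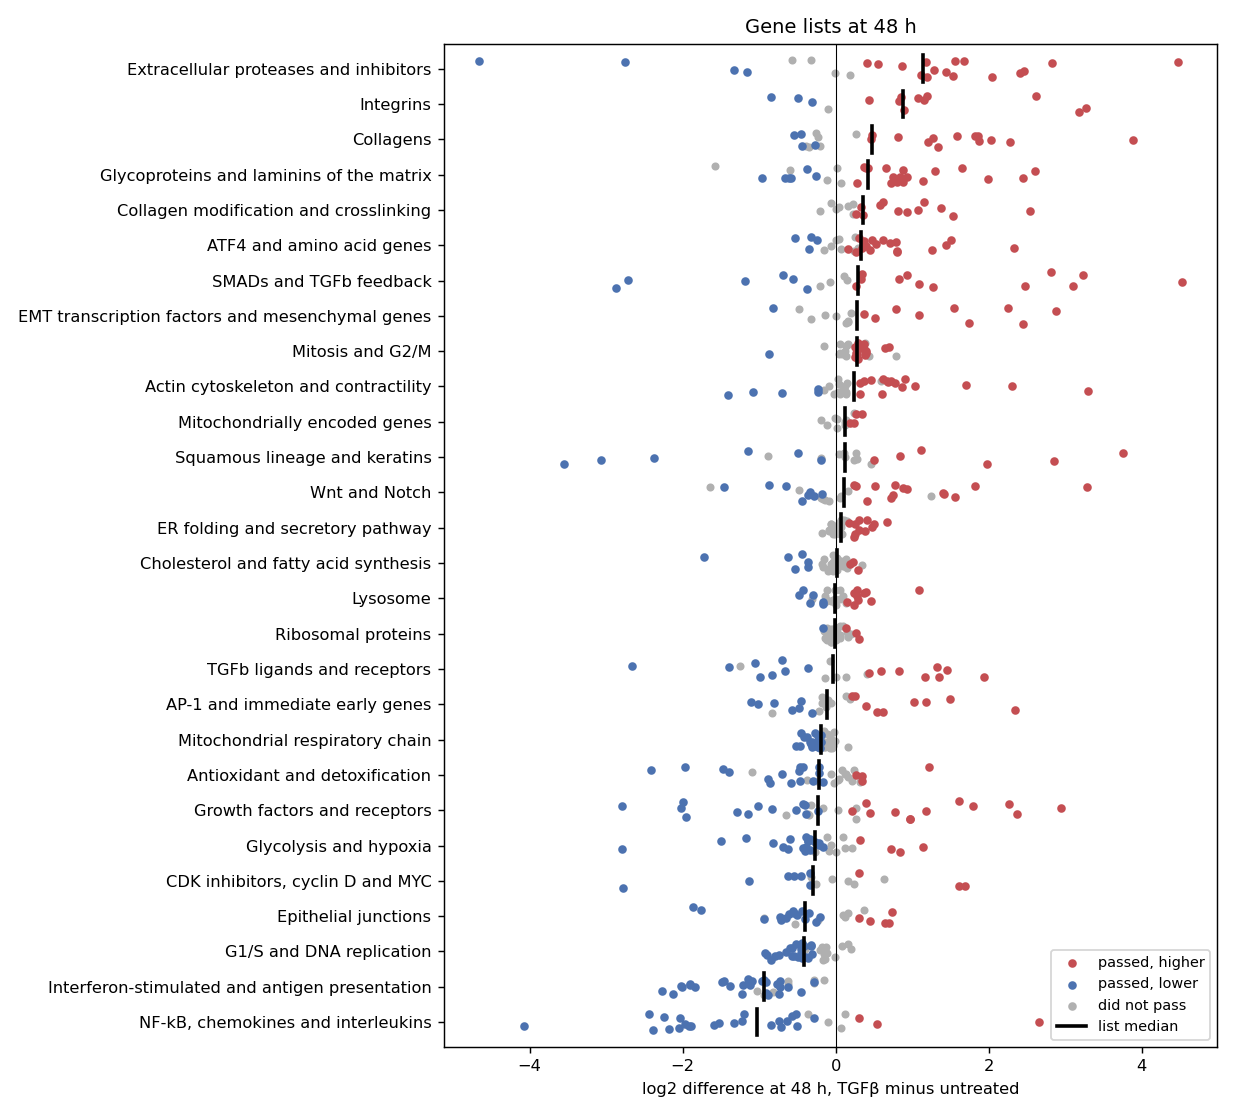
Log2 differences at 48 h (TGFβ minus untreated, limma voom) for the tested members of each of 28 gene lists, one point per gene and a bar at the list median, with called genes marked. Medians run from -1.02 for the NF-kB list to 1.15 for the protease list. With libraries scaled to the reference genes, all values shift up and the medians of the growth factor, AP-1, CDK inhibitor, antioxidant, glycolysis, respiratory chain, lysosome, ribosomal protein and TGFβ ligand lists turn positive.

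Of 34 genes for actin and its contraction, 16 were higher and 5 lower (median 0.23). TPM1, a tropomyosin that stabilises actin filaments, was at 181, 180 and 187 TPM in untreated and 1668, 1712 and 1772 TPM in treated libraries, a log2 difference of 3.29 ± 0.05. The LIM protein PDLIM7 went from 86.1 to 423 TPM, the filament organiser PALLD from 45.8 to 94.2 TPM and the filamin FLNA from 1132 to 1754 TPM. ACTA2, the smooth-muscle actin often used as a myofibroblast marker, was lower at 0.841 against 2.01 TPM. Of the unconventional and non-muscle myosins the study followed, MYO10 differed by 1.20 ± 0.035 and MYO1E by 0.29 ± 0.036, while MYH9 was lower by 0.23 ± 0.065 and turned to a higher value with the reference-gene scaling. The MYH9 call was lost when any of the 48 h libraries but untreated replicate 3 was left out, at -0.20 without untreated replicate 1 and -0.26 without treated replicate 1. MYO1E was not called once transcript length was taken into account.

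Of 18 factors and mesenchymal genes linked to epithelial-mesenchymal transition, 9 were higher and 1 lower (median 0.28). SNAI1, a repressor of E-cadherin, was at 1.24, 1.40 and 1.43 TPM without and 9.94, 10.3 and 9.22 TPM with TGFβ, a log2 difference of 2.88 ± 0.11, and its relative SNAI2 went from 16.5 to 47.7 TPM. Vimentin (VIM), the mesenchymal intermediate filament, differed by 2.25 ± 0.048, N-cadherin (CDH2) by 1.09 ± 0.044 and HMGA2, a chromatin protein, by 1.74 ± 0.067. ZEB1 did not pass, at 21.1 ± 0.518 and 23.5 ± 0.854 TPM (SD, n = 3). By PCR the study reported SNAI1, ZEB1, VIM and also MMP9 as induced, but MMP9 was below the count filter here and was not tested. S100A4, a calcium-binding protein of motile cells, was lower, at 623 against 1125 TPM.

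Epithelial junction genes were lower more often than higher, 15 against 5 of 27 (median -0.39). CLDN1, a tight-junction claudin, was at 42.7, 49.6 and 44.3 TPM without and 14.3, 12.9 and 12.5 TPM with TGFβ, a log2 difference of -1.76 ± 0.078. The scaffold TJP3 went from 5.77 to 2.18 TPM, occludin (OCLN) from 4.77 to 2.17 TPM and the plakophilin PKP2 from 12.4 to 8.34 TPM. E-cadherin (CDH1) was low in both arms, at 5.22 and 4.47 TPM, and its difference of -0.35 ± 0.076 turned positive with the reference-gene scaling. The desmosomal DSG2 was higher, at 125 against 78.4 TPM.

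Keratins and squamous genes were split, 6 higher and 6 lower of 22 tested. KRT17, which has close relatives, was at 5.65, 5.87 and 4.72 TPM in untreated and 69.3, 71.4 and 70.7 TPM in treated libraries. KRT7, a keratin of simple epithelia, went from 223 to 875 TPM and PKP1, a desmosomal plakophilin, from 16.1 to 34.4 TPM. SOX2, a squamous lineage factor often gained in this tumour type, was at 4.69, 5.56 and 5.45 TPM without and 0.482, 0.372 and 0.441 TPM with TGFβ, a log2 difference of -3.55 ± 0.18. Of the 6 fibroblast markers, PDGFRB was higher at 21.1 against 5.28 TPM, while DCN, LUM, THY1 and, by counts, PDGFRA were lower and COL3A1 did not pass. Endothelial markers summed to 3.29 and 4.04 TPM and leukocyte markers to 11.5 and 9.61 TPM. Their part in the matrix differences was not tested.

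Interferon-stimulated and antigen presentation genes, which act against viruses and show peptides to T cells, were lower in 27 of 35 cases and higher in 0 (median -0.94). OAS2, a sensor of double-stranded RNA at chr12:112978395-113011723 on the plus strand, was at 63.2, 56.8 and 53.4 TPM without and 11.8, 11.5 and 12.6 TPM with TGFβ, a log2 difference of -2.27 ± 0.063 (adjusted p = 3.12e-17). OASL and OAS1 were at 76.4 and 172 TPM without and 22.0 and 73.2 TPM with TGFβ. IFIT1, IFIT2 and IFIT3, which bind viral RNA, were at 154, 80.6 and 66.3 TPM without and 37.0, 18.4 and 17.4 TPM with it. The antiviral GTPase MX1 was at 293 against 95.4 TPM. B2M, the common chain of class I molecules, differed less, by -0.63 ± 0.046 at 1137 against 1799 TPM. Members of the OAS, IFIT and HLA families share sequence, so the assignment of their reads is less certain.

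The NF-kB list of inflammatory mediators had 23 lower and 3 higher of 30 tested (median -1.02). SOD2, the mitochondrial superoxide dismutase and a known NF-kB target, was at 1496, 1619 and 1495 TPM in untreated and 366, 325 and 312 TPM in treated libraries, a log2 difference of -2.05 ± 0.066. The neutrophil chemokines CXCL1, CXCL5 and CXCL8 went from 65.0, 99.5 and 37.7 TPM to 13.9, 21.7 and 12.3 TPM, the macrophage factor CSF1 from 426 to 102 TPM and the apoptosis inhibitor BIRC3 from 17.5 to 4.43 TPM. The NF-kB subunits RELA and NFKB1 did not pass, at 62.6 and 64.0 TPM and at 16.1 and 14.6 TPM. The higher members were IL11, a cytokine of the IL-6 family long known as TGFβ-induced, at 28.0 against 5.13 TPM, and CXCL6 and IL18.

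Promoters of some members of these lists carry short letter patterns known as binding sites of their regulators. Those of called members with the lowest p and a match are shown so that the gene groups can be seen in sequence. They are the 5' to 3' stretch just before the RefSeq start site (GRCh38.p14), with matches to either of the next 2 patterns, on either strand, in capitals. The interferon-stimulated response element was searched as GAAA followed after any 2 bases by another GAAA, and the NF-kB site as GGG followed after any 2 bases by TTTCC. OAS3 lies at chr12:112938224-112938473 (plus strand), IFIT3 at chr10:89327747-89327996 (plus), CXCL5 at chr4:73998678-73998927 (minus) and BIRC3 at chr11:102317234-102317483 (plus).
OAS3: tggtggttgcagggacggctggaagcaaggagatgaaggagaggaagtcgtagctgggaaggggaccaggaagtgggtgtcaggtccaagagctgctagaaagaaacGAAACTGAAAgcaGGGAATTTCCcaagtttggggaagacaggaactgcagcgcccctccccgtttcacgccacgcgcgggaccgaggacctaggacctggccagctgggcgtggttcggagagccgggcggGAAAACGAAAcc
IFIT3: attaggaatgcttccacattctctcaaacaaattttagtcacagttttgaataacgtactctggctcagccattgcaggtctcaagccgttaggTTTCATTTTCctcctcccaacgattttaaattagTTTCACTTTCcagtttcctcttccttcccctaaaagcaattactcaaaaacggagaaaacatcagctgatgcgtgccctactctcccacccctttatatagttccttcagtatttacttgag
CXCL5: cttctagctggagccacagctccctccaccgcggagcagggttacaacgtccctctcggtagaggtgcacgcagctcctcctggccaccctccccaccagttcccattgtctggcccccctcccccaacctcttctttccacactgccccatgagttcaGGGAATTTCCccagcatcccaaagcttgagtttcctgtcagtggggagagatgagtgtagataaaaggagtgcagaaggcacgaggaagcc
BIRC3: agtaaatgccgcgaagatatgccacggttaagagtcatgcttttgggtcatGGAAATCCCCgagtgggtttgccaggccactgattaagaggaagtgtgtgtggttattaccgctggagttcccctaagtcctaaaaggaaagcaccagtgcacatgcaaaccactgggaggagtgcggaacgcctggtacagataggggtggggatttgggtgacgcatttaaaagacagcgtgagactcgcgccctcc
OAS3 holds the interferon pattern at positions -143 and -12 from the start site and the NF-kB pattern at -130. IFIT3 holds the interferon pattern at -156 and -122, and the NF-kB pattern is at -91 in CXCL5 and at -199 in BIRC3. Over the lists, 16 of 27 interferon-list promoters matched to RefSeq (59.3%) hold the interferon pattern, against 839 of 27305 promoters (3.1%). The NF-kB pattern is in 12 of 27 promoters of its list (44.4%), against 1.7% of all. Both counts take in all matched members, called or not. In the stretch searched, OAS1 and MX1 lack the interferon pattern and SOD2 lacks the NF-kB pattern. CXCL6, which was higher with TGFβ, and NFKB1, which did not pass, hold the NF-kB pattern. Levels of OAS3 went from 80.4 to 27.9 TPM. The search describes letters only, and the lists themselves were drawn up from known regulation. CAGAC, the short SMAD box, was in 5 of 10 matched promoters of the 15 rises and 7 of 11 of the 15 falls, against 37.8% of all promoters.

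Genes of G1/S and DNA replication were lower, 22 of 35 with 0 higher (median -0.42). MCM3, a subunit of the replicative helicase, was at 66.6, 66.6 and 66.0 TPM in untreated and 43.8, 44.8 and 43.9 TPM in treated libraries, a log2 difference of -0.57 ± 0.040 (adjusted p = 1.29e-10). RRM2 and TYMS, which make deoxynucleotides, went from 51.4 to 26.5 TPM and from 59.7 to 38.7 TPM. The helicase subunit MCM2 went from 37.1 to 21.8 TPM and the loading factor CDC6 from 26.8 to 18.8 TPM. At 24 h the median of the same list had been 0.34, and for 30 of the 35 genes the change of the difference from 24 to 48 h passed the test, all 30 downward, against 5.63% of all genes. For MCM3, both arms were below their 0 h level by then. It stood at 130 and 129 TPM at 0 h, 60.0 and 72.6 TPM at 24 h and 66.4 and 44.2 TPM at 48 h.

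The E2F site, bound by the factors that switch on these genes, was searched as TTTNGCGC, and the promoters of called members with the lowest p and a match are E2F2 (chr1:23531234-23531483, minus) and MCM6 (chr2:135876444-135876693, minus), with matches in capitals.
E2F2: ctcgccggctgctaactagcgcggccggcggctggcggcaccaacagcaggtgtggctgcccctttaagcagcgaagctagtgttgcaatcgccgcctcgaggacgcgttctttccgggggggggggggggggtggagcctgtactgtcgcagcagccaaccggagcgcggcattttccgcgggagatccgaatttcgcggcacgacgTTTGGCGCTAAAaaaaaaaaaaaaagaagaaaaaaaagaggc
MCM6: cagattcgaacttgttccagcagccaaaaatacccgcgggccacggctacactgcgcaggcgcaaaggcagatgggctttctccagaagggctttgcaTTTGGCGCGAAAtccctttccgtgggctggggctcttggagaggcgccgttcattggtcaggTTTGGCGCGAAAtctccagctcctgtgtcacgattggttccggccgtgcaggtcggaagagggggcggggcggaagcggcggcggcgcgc
The capitals in each run are matches on both strands that overlap, at -42 and -38 in E2F2, and in MCM6 at -152 and -148 and again at -90 and -86. The pattern was in 8 of 29 matched promoters of the list (27.6%), against 1.5% of all promoters. E2F2 itself went from 2.32 to 1.14 TPM and MCM6 from 24.4 to 17.8 TPM.

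Mitotic genes went the other way at 48 h. Of 30, 16 were higher and 1 lower (median 0.28). For 13 the difference had moved upward since 24 h with 0 moving down, against 3.51% and 5.63% of all genes. BIRC5, the survivin of the chromosomal passenger complex, was at 25.9, 23.4 and 24.9 TPM without and 35.2, 36.7 and 37.1 TPM with TGFβ, a log2 difference of 0.64 ± 0.057 against -0.02 at 24 h. FOXM1, the factor that drives late cell-cycle genes, was at 32.2 against 39.5 TPM and the cyclin CCNB1 at 71.9 against 84.6 TPM. BIRC5 too had dropped in both arms from 0 h, where it stood at 178 and 183 TPM. UBE2C, a ubiquitin conjugase of mitotic exit, was the lower one, at 40.7 against 75.2 TPM.

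Of 16 CDK inhibitors, D cyclins and related genes, 3 were higher and 7 lower. CDKN1A (p21), an inhibitor that TGFβ is known to induce, went from 48.9, 48.7 and 47.5 TPM to 149, 149 and 137 TPM, a log2 difference of 1.61 ± 0.063 against 0.62 at 24 h. Its level at 0 h had been 163 and 153 TPM, so the untreated arm had come down. MYC, which TGFβ is known to repress, was at 66.4 against 98.7 TPM (-0.54 ± 0.070), and cyclin D1 (CCND1) at 227 against 189 TPM. GADD45A, a stress gene, was at 37.7 against 84.4 TPM, and its relative GADD45B at 36.8 against 11.7 TPM.

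**Figure D3:**
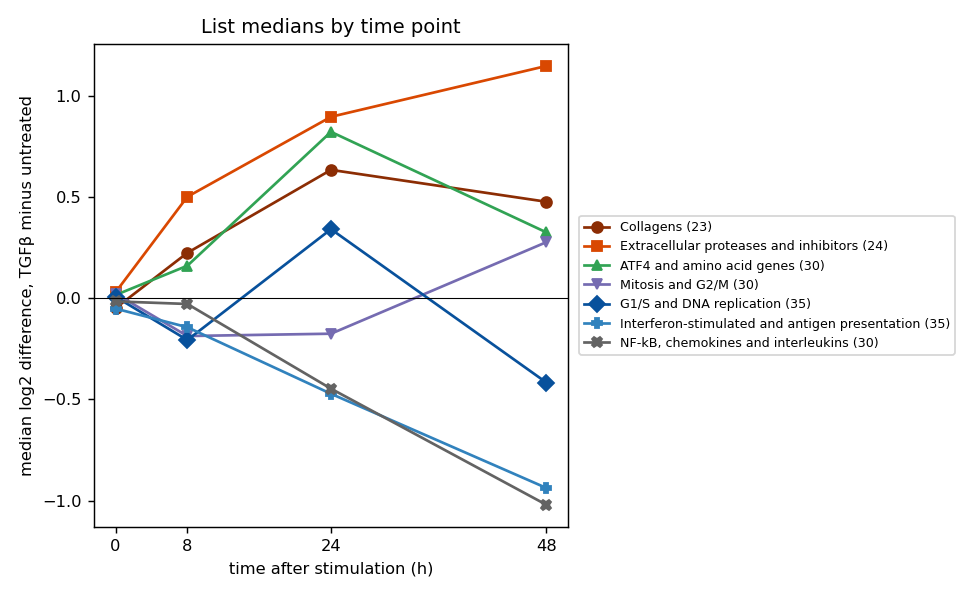
Median log2 difference (TGFβ minus untreated) of 7 gene lists at 0, 8, 24 and 48 h, one line per list over its tested members. The G1/S line crosses from 0.34 at 24 h to -0.42 at 48 h, the ATF4 line comes down from 0.82 to 0.33, and the interferon and NF-kB lines reach -0.94 and -1.02.

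Amino acid and secretory genes had smaller median differences at 48 h than at 24 h. Of 30 ATF4 and amino acid genes, 18 were higher and 4 lower at 48 h (median 0.33, against 0.82 at 24 h). Since 24 h, 16 differences had moved down and 1 up, against 5.63% and 3.51% of all genes. PHGDH, the first enzyme of serine synthesis, was at 40.7, 40.3 and 43.2 TPM without and 110, 110 and 112 TPM with TGFβ, a log2 difference of 1.45 ± 0.091 against 1.05 at 24 h, a change that did not pass the test. The arginine transporter SLC7A1 went from 17.9 to 30.5 TPM, with 0.79 ± 0.055 at 48 h against 1.33 at 24 h. ASNS, asparagine synthetase, went from 23.1 to 37.5 TPM (0.80 against 1.58 at 24 h). Of 32 genes of protein folding and secretion in the endoplasmic reticulum, 11 were higher and 0 lower. Their median of 0.07 turned negative with library totals and had been 0.42 at 24 h. Of the 32 differences, 11 had moved down since 24 h with 0 moving up, against 5.63% and 3.51% of all genes. The chaperone HSPA5 stood at 296 TPM in both arms, after a difference of 0.93 at 24 h, while HERPUD1, of the degradation pathway, was at 127 against 91.9 TPM.

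Of 32 cholesterol and fatty acid genes, 3 were higher and 6 lower at 48 h, beside 16.2% and 16.5% of all genes tested. Since 24 h, 13 differences had moved up and 1 down, against 3.51% and 5.63% of all genes. SCD, a fatty acid desaturase, was at 599 and 598 TPM, after a difference of -0.49 at 24 h. ELOVL6, a fatty acid elongase, was the 1 that moved down, at 65.5, 72.5 and 72.5 TPM without and 21.5, 22.2 and 21.7 TPM with TGFβ, a log2 difference of -1.73 ± 0.066. ACSS2 and TM7SF2 were lower by 0.36 and 0.62, both less than at 24 h. Neither ribosomal proteins (3 higher, 1 lower of 47) nor mitochondrially encoded genes (4 higher of 13) moved far, and the called MT-ATP6 and MT-ND4 turned to lower values once the 0 h difference was subtracted. Leaving out untreated replicate 1 or treated replicate 2 ended both calls, at 0.24 or 0.20 for MT-ATP6 and 0.16 or 0.15 for MT-ND4.

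Of 32 glycolysis and hypoxia genes, 19 were lower and 4 higher, with a median of -0.27 that turned positive with the reference-gene scaling. ENO1, enolase, was at 2644, 2613 and 2641 TPM without and 1764, 1695 and 1703 TPM with TGFβ (-0.59 ± 0.054). The hypoxia-regulated EGLN3 and CA9, a prolyl hydroxylase and a carbonic anhydrase, went from 53.6 to 18.1 TPM and from 5.14 to 0.887 TPM, and VEGFA, the angiogenic factor, from 224 to 109 TPM. The glucose transporter SLC2A1 and the regulator PFKFB3 were higher, at 457 against 251 TPM and 37.3 against 18.6 TPM. Of 39 nuclear genes of the respiratory chain, 19 were lower and 0 higher, with a median of -0.19 that also turned positive with that scaling. ATP5F1B, a subunit of the ATP synthase, was at 315 against 427 TPM.

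Antioxidant and detoxification genes were lower in 16 and higher in 4 of 34 cases, with a median of -0.22 that turned positive with the reference-gene scaling. ALDH1A3, which makes retinoic acid, was at 407, 411 and 396 TPM in untreated and 71.3, 74.9 and 83.4 TPM in treated libraries, a log2 difference of -2.42 ± 0.033 (adjusted p = 3.94e-22) against -1.44 at 24 h. ALDH3A2, an aldehyde dehydrogenase of fatty aldehydes, went from 212 to 72.1 TPM and CYP1B1 from 187 to 101 TPM. HMOX1, heme oxygenase, was higher, at 31.2 against 13.4 TPM. Of 31 lysosomal genes, 10 were higher and 6 lower, beside 16.2% and 16.5% of all genes tested. TFEB, their regulator, went from 4.93 to 10.8 TPM and the protease CTSL from 142 to 178 TPM, while HEXA was lower by 0.33, a value that turned positive with the reference-gene scaling.

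Of 33 genes for growth factors, their receptors and binding proteins, 12 were higher and 13 lower. FGF1 was at 1.35 ± 0.0707 TPM without and 8.93 ± 1.08 TPM with TGFβ (SD, n = 3). Also higher were the PDGF chains PDGFB and PDGFC, at 30.7 against 6.82 and 73.5 against 23.0 TPM, and the binding protein IGFBP7, at 779 against 228 TPM. The EGF-receptor ligands AREG, EREG and HBEGF were lower, at 13.8 against 55.9, 51.8 against 116 and 2.37 against 4.83 TPM. IL6R, the interleukin-6 receptor, was at 13.4, 15.6 and 13.7 TPM without and 3.89, 3.73 and 3.23 TPM with TGFβ, a log2 difference of -2.01 ± 0.056. EGFR did not pass, at 34.5 and 34.0 TPM. PDGFRA was called lower by counts (-0.39 ± 0.054) at the same level of 10.7 TPM in both arms, and the call was lost with length-scaled counts.

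Immediate early genes were also split, 9 higher and 7 lower of 26. EGR2 went from 0.600, 0.571 and 0.792 TPM to 3.21, 3.57 and 3.16 TPM, and JUNB, an AP-1 subunit, from 35.8 to 99.3 TPM. FOSL1 and the inhibitors SPRY1 and DUSP5 of the MAP kinase pathway were lower, at 26.0 against 57.3, 6.41 against 13.3 and 18.7 against 32.9 TPM. Of 32 Wnt and Notch genes, 14 were higher and 8 lower. HES1, a Notch target, was at 12.6, 11.7 and 11.6 TPM without and 23.5, 22.5 and 22.3 TPM with TGFβ. WNT7B went from 2.73 to 9.59 TPM, and the secreted Wnt antagonist DKK1 from 13.0 to 5.54 TPM.

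Between 24 and 48 h the difference between the arms changed for 1592 genes (9.14%), 612 upward (3.51%) and 980 downward (5.63%). Within each arm the libraries of these times carried the same code in their table names. From 8 to 48 h the code changed within each arm as well, and the difference changed for 2447 genes (14.1%), 1169 upward (6.71%) and 1278 downward (7.34%). Of the 1592 genes whose difference changed from 24 h, 1212 were called at 48 h. Among these 1212, 1050 had a larger difference than at 24 h, 429 of them higher and 621 lower with TGFβ. Another 162 had a smaller or turned one. Choosing genes by their call at 48 h favours larger differences at that time, so this split is only a description.

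Several genes passed from higher to lower. CEMIP, a hyaluronidase, was at 68.1 against 23.3 TPM at 24 h and at 85.2 against 102 TPM at 48 h, where its difference of -0.28 ± 0.056 turned positive with the reference-gene scaling. TP63 was at 32.0 against 16.0 TPM at 24 h and 26.8 against 36.8 TPM at 48 h, a change of -1.51, and STC2, a secreted glycoprotein, at 63.8 against 27.5 TPM and then 48.4 against 69.1 TPM. CDC6 went the same way, with a change of -1.43. The calls of TP63, STC2 and CDC6 at 48 h were lost with the reference-gene scaling, at -0.14, -0.08 and -0.17, and that of CEMIP with the 0 h difference subtracted, at -0.09. In the other direction, the sugar transporter SLC2A12 was at 32.0 against 58.3 TPM at 24 h and 32.1 against 22.7 TPM at 48 h. MAF, a leucine-zipper factor, was at 2.44, 1.78 and 1.87 TPM without and 10.8, 10.9 and 9.72 TPM with TGFβ at 48 h, a difference that had grown by 1.23, and LRIG3, a receptor-like membrane protein, was at 22.3 against 11.01 TPM after 0.12 on the log2 scale at 24 h.

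**Figure D4:**
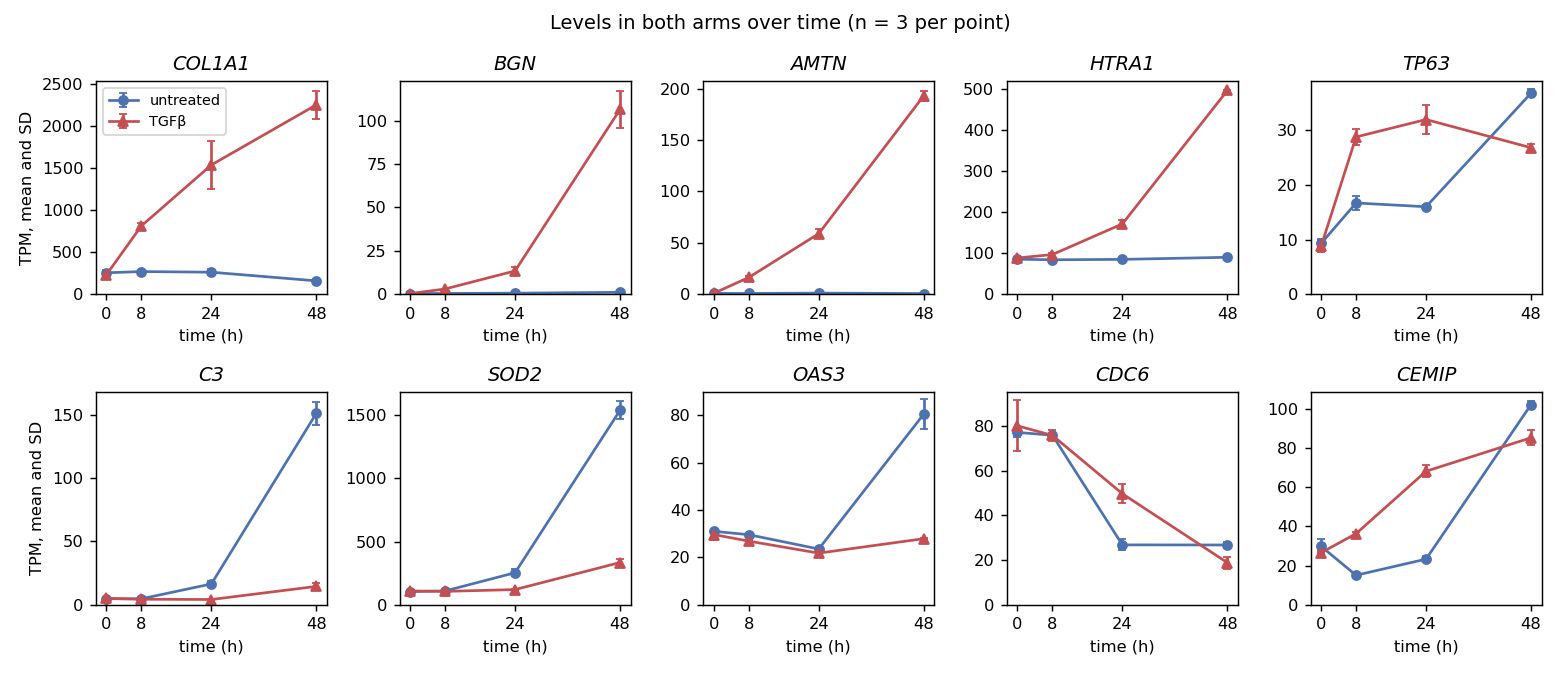
Levels of 10 genes over 0, 8, 24 and 48 h in untreated and TGFβ-treated cells, in TPM as mean and SD of 3 libraries, each panel with its own axis. COL1A1, BGN, AMTN and HTRA1 climb to 48 h with TGFβ, C3, SOD2 and OAS3 climb in untreated cells, and the lines of TP63, CDC6 and CEMIP cross between 24 and 48 h.

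Within genes, the mix of transcripts also differed. Of 6301 genes of at least 20 TPM in both arms, 13 had a transcript that gained over 20 points of the gene's TPM with TGFβ and shares that did not overlap. PTMS-201 of parathymosin went from 39.2% ± 16.5 (SD, n = 3) to 72.9% ± 1.70, TMCC1-202 from 0.917% to 33.9%, SCAF8-203 from 10.7% to 41.6%, GSDMD-201 from 7.24% to 34.2% and FEM1B-203 from 8.71% to 34.7%. SCAF8 itself did not pass, at 23.8 and 20.9 TPM. GSDMD, the pore-forming gasdermin, was called at 0.67 ± 0.20, but the call was lost under most other settings. In TPM1, TPM1-206 made up 52.4% of the gene's TPM without and 71.8% with TGFβ, and TPM1-208 19.3% and 0.223%. Shares of this kind depend on how reads shared by transcripts were divided.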

How the data were processed

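Total RNA of SK-MES-1 cells with an integrity number of at least 8 was sequenced on an Illumina HiSeq. The authors quantified each library with kallisto 0.43.0 (submitters' processing notes) against Ensembl release 79 transcripts of GRCh38 and deposited estimated counts, TPM and effective lengths for 173259 transcripts per library, with replicates not pooled. The estimated counts deposited by the authors are expected reads per transcript, neither normalized nor whole. In the TPM deposited by the authors, these are divided by effective length and put on a common total. Effective lengths, also deposited, served for length-scaled counts.

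From these, 155518 transcripts were matched by identifier to GENCODE release 44 (GRCh38), and estimated counts and TPM were summed to genes. The 17741 unmatched transcripts stayed out, so levels of some genes are partial. Rounded gene counts of at least 10 in at least 3 libraries (17413 genes) were fitted with limma 3.58.1 voom on TMM factors of edgeR 4.0.16 (R 4.3.3), with 8 group means over all 24 libraries, which share 1 estimate of the spread. Genes were called at a Benjamini-Hochberg adjusted p below 0.01. Contrasts were the arms at 48 h and the change of their difference from 24 and from 8 h to 48 h. Depth at 48 h was 46613589 to 63192651 estimated reads. Replicates differed by more than sampling noise, with chi-square values of 3.42 to 6.26 per gene. Counts were simulated for the 48 h comparison with 17170 genes, of which 200 were changed, with as many rises as falls. On these, limma called 94 of 100 genes changed by 1 on the log2 scale, 100 of 100 changed by 2 and 0 unchanged ones. The data had a far larger share of called genes and many smaller differences, so the simulation does not cover those or the choice of scaling. edgeR, DESeq2 1.42.0, other scalings, filters, length-scaled counts, log2(TPM + 1), log2(TPM + 0.1), a replicate block and leaving out each library were tried as alternatives.

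The comparison, its 28 gene lists and the markers were chosen with earlier results of these data known. Genes were named by rule: the 15 largest called differences in each direction with at least 10 TPM and no overlap, the 5 largest TPM gains and losses, the 3 lowest p of each list, the 5 lowest p per direction for the change from 24 h, genes the study names, markers, and the 5 transcripts with the largest gain in share. A gene that the rule takes in is not reported here. Further list members were chosen as examples after their values were seen. Promoter letters are from RefSeq tables (GRCh38.p14) searched with Python 3.11.15.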

Additional observations from a re-analysis of the deposited data

Results flagged for a closer look

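Among the 150 named genes, the difference between the arms changed from 24 to 48 h for 73, 29 upward and 44 downward. The change itself was tested in limma voom at an adjusted p below 0.01. Over all 17413 genes tested it passed for 1592 (9.14%). Some of the 150 were named for the lowest p of this very change and others for large differences at 48 h. The count of 73 is therefore partly set by that choice and only describes the named genes. The number beside each gene below is the change of its difference from 24 to 48 h on the log2 scale.

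Matrix, protease and mesenchymal genes moved apart further in COL1A1 (1.27), COL8A2 (0.89), BGN (2.01), AMTN (2.61), P4HA3 (0.54), LTBP1 (0.30), HTRA1 (1.46), MMP2 (0.46), PRSS2 (1.70), PROC (2.48), CST4 (1.04), ITGA11 (0.49), VIM (0.72), SNAI1 (1.67), PDGFRB (0.79) and MARCKS (0.37). In the same groups, the change was downward for CCN2 (-1.04), COL4A1 (-0.40), TIMP3 (-1.18), DCN (-1.83), LUM (-1.11), CEMIP (-1.91), ITGA5 (-0.47), MYO10 (-0.28), MYO1E (-0.54) and SEMA7A (-0.54).

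Signalling, growth and transcription genes changed upward in FGF1 (0.82), PTHLH (0.78), IGFBP7 (0.53), DRAXIN (0.79), SPRY1 (0.47), LRIG3 (0.97), MAF (1.23) and TMCC1 (0.51), and downward in DKK1 (-1.64), STC2 (-1.81), PPFIBP2 (-1.24), TP63 (-1.51) and MLXIPL (-2.13).

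Immune, complement and acute-phase genes all changed downward, among the 11 named that passed: C3 (-1.55), CP (-1.56), FGG (-1.73), SLPI (-1.62), CHI3L2 (-1.04), CXCL5 (-1.07), CXCL10 (-1.67), SOD2 (-1.24), OAS1 (-0.87), OAS2 (-1.25) and OASL (-0.78). Epithelial genes changed downward too, in CLDN1 (-0.93), KRT7 (-0.68), KRT17 (-1.70) and KRT18 (-0.23).

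Of the cell cycle genes, CDKN1A (0.99) and BIRC5 (0.66) changed upward and CDC6 (-1.43), MCM3 (-0.88), RRM2 (-0.61), TYMS (-0.58) and GADD45A (-0.91) downward. Metabolic and secretory genes changed upward in ACSS2 (0.30), TM7SF2 (0.62) and SLC2A12 (1.35) and downward in ALDH1A3 (-0.97), ALDH3A2 (-0.31), ELOVL6 (-0.82), ENO1 (-0.32), NDUFA9 (-0.26), ATP5F1B (-0.19), SLC7A1 (-0.54), HERPUD1 (-0.38) and S100A6 (-0.35).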

How the results depend on the processing

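Of 5699 comparisons of a named gene with another setting, 5513 kept direction and side of the threshold, 149 lost and 26 gained the call, and 11 turned sign. The 5688 calls at 48 h (2820 higher, 2868 lower) became 9455 (8373 and 1082) with libraries scaled to the reference genes, 3613 (1839 and 1774) with the 0 h difference subtracted, 1461 with a 2-fold minimum, and 4237 higher with only the 48 h libraries and a replicate block. Between 24 and 48 h, 1592 calls became 1049 with length-scaled counts and 1000 with log2(TPM + 0.1), and from 8 h 2447 became 4064 with the reference genes. At 0 h DESeq2 called 8. Leaving out each library gave 4840 to 6183 calls at 48 h (2402 to 3069 higher, 2417 to 3114 lower), 1151 to 1921 from 24 h, 2019 to 2850 from 8 h, 425 to 492 of the 780 list genes (476 with all) and 134 to 143 named genes (142 with all). Signs turned with the reference genes for KRT18 (0.16), MYH9 (0.115), EEF1A1 (0.0735), CEMIP (0.0724), NDUFA9 (0.0384), NDUFA4 (0.0217), HEXA (0.0194) and CDH1 (0.00313), with length-scaled counts for PDGFRA (0.0242), and with the 0 h difference subtracted for MT-ATP6 (-0.000122) and MT-ND4 (-0.0488). All 4 reference genes had values below 0 at 48 h, which shifts the rest upward. The other causes were not tested.

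The arms share replicate numbers, but deviations of same-numbered 48 h libraries correlated at 0.0091, 0.106 and 0.143, and untreated replicate 1 correlated best with treated replicate 2 (0.099), so the numbers were not taken to pair cultures. A replicate block over all libraries gave 6227 calls and left the calls of the named genes as they were, at 142. The depth limits mainly genes near 0 TPM and transcripts that share reads.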

Other observations

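The groups here were put together after values had been seen, so they describe these libraries and support nothing. Of 22 complement and acute-phase genes tested, 17 were lower with TGFβ at 48 h and 2 higher, with a median log2 difference of -1.25. Over all genes tested, 16.5% were lower and 16.2% higher. The classical-pathway proteases C1S and C1R went from 181 to 87.8 TPM and from 98.1 to 42.5 TPM. The higher ones were SERPINA3, an inhibitor of neutrophil proteases, at 37.2 against 8.21 TPM, and CD55, which shields cells from complement, at 101 against 77.5 TPM. Of 6 genes of the chorionic gonadotropin family tested, 5 were higher, beside 16.2% of all genes, with a median of 2.86. However, the near-identical sequences of this family mean that reads may be split among its members.

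By gene type, 17.3% of 15693 protein-coding genes were higher and 17.7% lower at 48 h. Of 420 long non-coding RNA genes, 4.52% were higher and 8.1% lower, and of 642 processed pseudogenes 6.07% were higher and 3.74% lower. The types were not matched for level, so these shares do not compare how strongly each type responds.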
